A study of Mus musculus with 3 samples.

Results

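Immediate early genes are transcribed within minutes of a stimulus, from regulators already present in the cell, and their mRNAs are short-lived. The 42 genes described here (Fos, Jun, Egr1, Atf3 and related genes) were chosen by symbol from a fixed list, and all were found among the 32285 genes of the deposited tables. The list was set with earlier results of these data known. Counts of its genes beside those of all genes are therefore descriptive and no independent result. They were read in endothelial cells (ECs) of the mouse lung, in 3 droplet single-cell RNA libraries, 1 for each group. Control mice received 100 µl of PBS into the tail vein and were taken after 6 h. A second library came from mice taken 6 h after 200000 B16-F10 cells in the same volume, and the other from mice taken 30 h after such an injection. B16-F10 cells are mouse melanoma cells that lodge in lung capillaries. All mice were wild-type C57BL/6, males of 8 to 10 weeks at injection per the study's methods, and cells of several mice were pooled into each library. The labels give 2 mice per treatment and the study's methods 3 for this experiment. Lungs of all groups were digested with warm collagenase for 1 h, and Pecam1-positive, Ptprc-negative cells were sorted. Sorted melanoma cells carrying a tracker dye were put into the 6 h library per the labels, while the study's methods do not limit their collection to that time, so the 30 h library may hold them too. The question was what lung ECs do when circulating tumor cells arrive. A 30 h PBS library is not among those analysed here, and time after injection and the injection itself therefore cannot be told apart in the 30 h comparison. Because groups had no replicates, no test between them was possible, and every interval covers counting error only.

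Growth factors, cytokines, calcium and stress reach these genes through MAP kinases, which activate factors already bound at their promoters. Such factors are SRF with its Elk partners at the CArG box and CREB at the cAMP response element (CRE). Fos and Jun proteins then pair as AP-1, while other early genes encode phosphatases and mRNA decay factors that end the signal. In ECs, early genes respond to flow, thrombin, cytokines and wounding, and enzymatic digestion of tissue is itself known to induce them.

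Exact matches of these elements were found in some of the promoter windows searched. RefSeq promoter windows (GRCm38.p6, the same assembly as the mm10 build of the counts, 250 bases before to 50 after each transcript start) were matched for 33 of 42 genes. No window was matched for Fosl1, Egr1, Egr3, Ier2, Dusp4, Myc, Klf10, Trib1 and Sik1. Both strands were searched for 5 motifs, and no matches of different motifs overlapped. The CRE (TGACGTCA) was found in 5 of the 33 genes (Btg2, Dusp1, Maff, Plk2 and Ppp1r15a), or 15.2%, and in 2.03% of all 27025 genes in the table. The CArG box was found in Dusp5, Egr2 and Zfp36 (9.09%, against 1.81% of all genes). TATAAA was found in 8 genes (24.2%, against 15.7%), among them Fos, Junb and Ppp1r15a. The Fos match begins 33 bases before the transcript start, the Junb match at the start itself and the Ppp1r15a match 15 bases after it. The cytokine-response element GAS (TTCNNNGAA) was found in Csrnp1, Maff and Zfp36 (9.09%, against 9.55%), and the AP-1 site (TGANTCA) in Csrnp1 and Zfp36l1 (6.06%, against 8.97%). The 150 bases before the start are shown for 6 of the members that carry an element there, chosen as examples of the TATAAA, CArG box, GAS and CRE matches in genes of different roles. Capitals mark the matches, and all are written 5′ to 3′ on the strand of the gene. Fos (chr12:85473740-85473889, plus strand) holds a TATAAA match. Dusp5 (chr19:53528995-53529144, plus strand, its last bases inside the gene's span) holds a pair of adjacent CArG boxes. Egr2 (chr10:67537719-67537868, plus strand, 1 of 5 windows of the gene, inside its span) holds 1 CArG box. Zfp36 (chr7:28379229-28379378, minus strand, inside the span that GENCODE gives for the gene) holds a CArG box followed by a GAS. Maff (chr15:79347370-79347519, plus strand, 1 of 3 windows, inside the gene's span) and Ppp1r15a (chr7:45526269-45526418, minus strand) each hold a CRE. A match is a description of the letters and not a measured binding site. Sites outside the windows, or with letters that differ from those searched, were not looked for. A gene without a match, such as Fos for the CRE and the CArG box, may therefore still carry the element.
Fos: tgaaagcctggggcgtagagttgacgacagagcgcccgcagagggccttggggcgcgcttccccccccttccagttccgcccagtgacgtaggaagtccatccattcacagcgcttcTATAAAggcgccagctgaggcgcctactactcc
Dusp5: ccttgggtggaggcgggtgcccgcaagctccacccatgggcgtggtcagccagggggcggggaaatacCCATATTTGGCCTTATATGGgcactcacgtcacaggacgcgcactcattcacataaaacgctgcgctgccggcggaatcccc
Egr2: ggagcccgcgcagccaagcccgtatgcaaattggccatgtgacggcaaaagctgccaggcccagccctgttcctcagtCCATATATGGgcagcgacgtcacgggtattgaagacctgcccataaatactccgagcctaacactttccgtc
Zfp36: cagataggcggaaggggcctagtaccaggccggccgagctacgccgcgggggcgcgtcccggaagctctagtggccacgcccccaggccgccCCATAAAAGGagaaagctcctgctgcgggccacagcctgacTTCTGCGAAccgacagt
Maff: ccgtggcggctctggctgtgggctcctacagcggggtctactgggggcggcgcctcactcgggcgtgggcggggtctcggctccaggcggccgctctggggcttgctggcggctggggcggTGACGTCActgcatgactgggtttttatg
Ppp1r15a: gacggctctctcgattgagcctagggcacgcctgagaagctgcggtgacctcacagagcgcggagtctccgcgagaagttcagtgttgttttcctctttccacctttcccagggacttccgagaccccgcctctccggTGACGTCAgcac

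ECs were taken as barcodes with 1000 to 5000 detected genes, under 20% mitochondrial UMIs and at least 2 UMIs of Pecam1 and Cdh5 together. UMIs are short random tags by which captured RNA molecules are counted. EC barcodes numbered 11231 for control, 10583 for 6 h and 9278 for 30 h, with 90853430, 87340328 and 81485079 UMIs and a median depth of 7782, 8033 and 8675.5 UMIs. Between 22 and 38 barcode sequences were shared by any pair of libraries, and 0 by all 3. Levels are given as CPM, the UMIs of a gene per 1000000 UMIs of the EC barcodes. These are counts of 3′ ends that carry no correction between genes, so no order between genes is read from them. Ratios are log2 ratios of (CPM + 1), which understate the differences of genes with few UMIs, and their intervals (95%, exact) are those of the CPM ratio itself.

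Taken as 1 sum, the 42 genes were higher 6 h after melanoma cells and lower at 30 h. Their share of all EC UMIs was 1.25% in control (95% interval 1.246 to 1.251), 1.68% for the 6 h library (1.674 to 1.680) and 0.957% for the 30 h library (0.955 to 0.959). Of the 42 genes, 36 passed a filter of 5 CPM on the mean of the libraries. Those below that level were Fosl1, Egr2, Nr4a3, Dusp2, Dusp10 and Myc. At 6 h against control, 35 of the 36 lay above 0 on the log2 scale, with Dusp4 as the exception. Of all 10175 genes that passed the same filter, 46.3% lay above 0. The median log2 ratio of the 36 was 0.39, beside −0.01 over all genes. At least 1.5-fold higher were 13 of the 36 genes, beside a background of 1.8% of all genes, and at least 1.5-fold lower were 0, beside 1.14%. Dusp5 is among the 13 and among the genes counted as lower at 30 h below. It was under 5 CPM in control and at 30 h and passed the filter only through its 6 h level.

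The 36 genes had a median log2 ratio of −0.25 at 30 h against control, beside −0.07 over all genes. There were 9 genes at least 1.5-fold lower (background 4.39%) and 2 at least 1.5-fold higher, Nr4a1 and Klf10 (background 4.24%). The share of higher genes lay near the background. At 30 h against 6 h the median was −0.63, with 21 genes at least 1.5-fold lower (background 4.61%) and 1, Klf10, higher (background 4.69%). The 3 comparisons share libraries and are not independent. In all, 25 of the 36 genes were above control at 6 h and below it at 30 h, and 10 were above control at both times (Ier5, Nr4a1, Nr4a2, Dusp1, Klf10, Csrnp1, Trib1, Gadd45b, Sik1 and Plk2). Of all genes, 46.3% lay above 0 at 6 h and 40.9% at 30 h. The share of all genes with either pattern over both times was not taken, so these counts have no background.

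**Figure D1:**
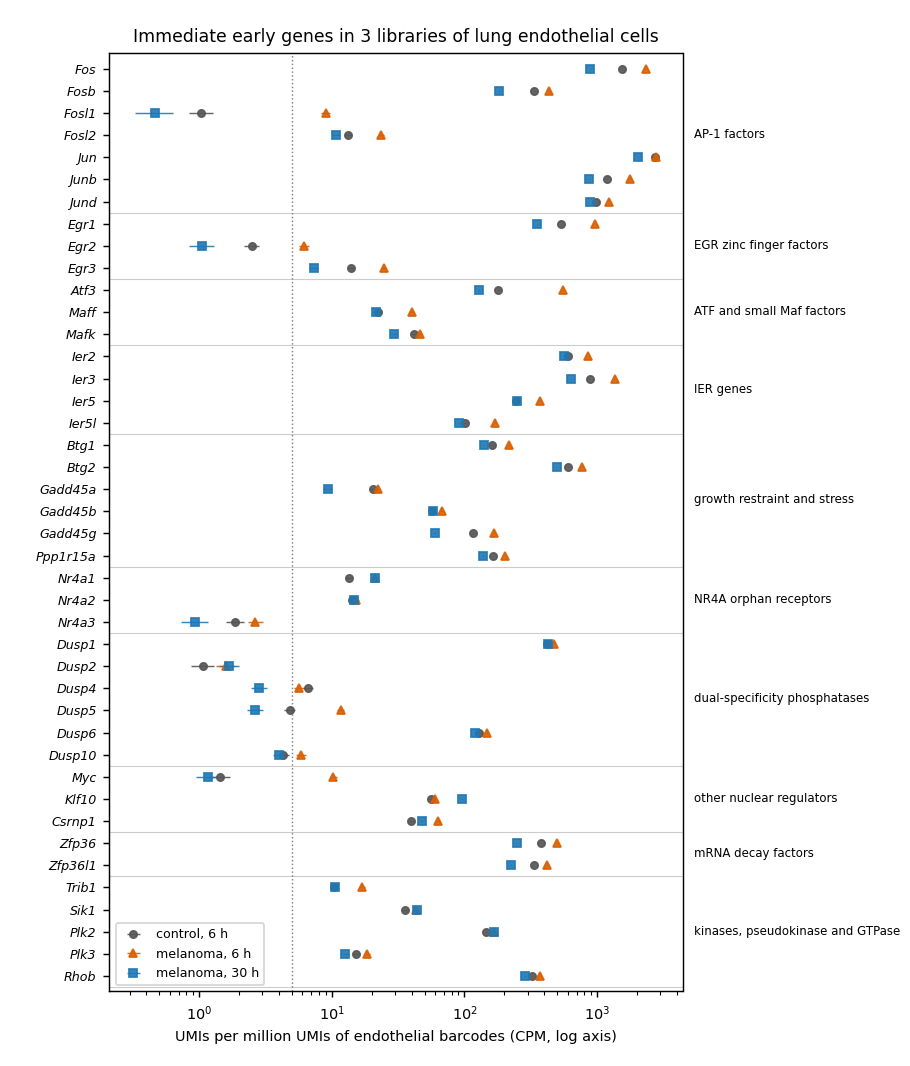
Level of each of the 42 genes in CPM (log axis) in the control library (circles), 6 h after melanoma cells (triangles) and 30 h after them (squares), grouped by role. Bars are exact 95% Poisson intervals for counting error, and the dotted line is the 5 CPM filter. For most genes the 6 h library lies to the right of control and the 30 h library to the left, with Atf3 at 180, 550 and 128 CPM and Klf10 at 56.0, 59.5 and 95.7 CPM.

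The AP-1 factors are the Fos and Jun proteins, which bind DNA as pairs. Fos (chromosome 12, 85473890 to 85477273), the prototype immediate early gene, had 1550, 2339 and 887 CPM, where the first value is control, the next 6 h and the last 30 h, as for all values below. The log2 ratios to control were 0.59 (0.58 to 0.60) for 6 h and −0.80 (−0.82 to −0.79) for 30 h. Fosb, its close relative, was at 335, 436 and 182 CPM. Fos was thus past 1.5-fold in both directions, while Fosb, at 0.38 for 6 h and −0.88 for 30 h, was past it at 30 h alone. The 6 h ratio of Fos fell to 0.54, under the limit of 1.5-fold, when all barcodes from 300 genes upward were taken. Fosl2, a Fos-related factor without the strong activation domain of Fos, had 13.3, 23.6 and 10.8 CPM and log2 ratios of 0.78 and −0.28. Junb, a Jun relative that can restrain the activity of Jun, had 1180, 1759 and 871 CPM. Its 6 h log2 ratio of 0.58 lay just under the 1.5-fold limit, and from 6 h to 30 h it was lower by 1.01 on the log2 scale. Jun itself, the main partner of Fos, differed little between control and 6 h, with 2721 and 2789 CPM, and was at 2025 CPM at 30 h (log2 ratio −0.43). Jund had 987, 1230 and 884 CPM and was within 1.5-fold in each pair.

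Fosl1, whose protein is another Fos partner of Jun, was under the filter with 1.03, 8.96 and 0.466 CPM from 94, 783 and 38 UMIs. Of its 783 UMIs at 6 h, 525 lay in 104 barcodes with at least 3 each. Barcodes that also held at least 3 UMIs of melanoma genes carried 8 of the 783. Myc, a growth-promoting transcription factor, had the same kind of pattern, with 131, 898 and 95 UMIs (1.44, 10.3 and 1.17 CPM). Of its UMIs at 6 h, 583 lay in 115 barcodes with at least 3 each and 7 lay in barcodes with melanoma RNA. Most UMIs of both genes in EC barcodes of the 6 h library thus lay in a small set of barcodes. In empty droplets Fosl1 was at 0.723, 10.3 and 0.344 CPM and Myc at 0.723, 8.15 and 2.07 CPM, so at 6 h the free RNA held them at levels near those of the barcodes, and its part in the result was not tested.

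The EGR genes encode zinc finger factors induced through SRF. Egr1, best known in ECs as a factor raised by injury and flow, had 537, 968 and 354 CPM, with log2 ratios of 0.85 (0.83 to 0.86) and −0.60 (−0.62 to −0.58). Its 30 h ratio was short of 1.5-fold in gCap-like barcodes alone and with median-of-ratios size factors (−0.53). Egr3 had 13.9, 24.8 and 7.31 CPM, with ratios of 0.79 and −0.85. Egr2, whose promoter carries the CArG box shown above, was under the filter with 2.50, 6.22 and 1.06 CPM from 227, 543 and 86 UMIs. Thus all 3 EGR genes were highest at 6 h and lowest at 30 h.

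Atf3 showed the largest 6 h ratio among the 36 genes. It encodes a stress-induced factor of the ATF and CREB family that mostly represses transcription (chromosome 1). It had 180, 550 and 128 CPM. The log2 ratio of 1.61 at 6 h (1.59 to 1.64) ranked 12 of 10175 genes from the highest. At 30 h against 6 h it was lower by 2.09 on the log2 scale and ranked 12 from the lowest. EC barcodes with at least 3 Atf3 UMIs numbered 1842 in control, 3599 at 6 h and 1141 at 30 h, of 11231, 10583 and 9278. The small Maf proteins lack an activation domain and act as partners of other factors. Maff, with the CRE shown above, had 22.3, 40.2 and 21.5 CPM, a 6 h log2 ratio of 0.82 and −0.05 at 30 h. Mafk had 41.9, 46.5 and 29.7 CPM and was past 1.5-fold only between 6 h and 30 h (−0.63), a ratio that fell short of it in 4 of 13 other settings (−0.46 at the least).

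The IER genes are small early response genes that act in transcription and in cell survival. All 4 were higher at 6 h, and 3 were past 1.5-fold. Ier3, which modulates apoptosis and ERK signalling, had 881, 1353 and 634 CPM and log2 ratios of 0.62 and −0.47. Ier5 had 243, 372 and 251 CPM, with 0.61 at 6 h and 0.04 at 30 h. Ier5l had 101, 169 and 91.2 CPM, with 0.74 and −0.14. Ier2 had 608, 853 and 559 CPM and a 6 h ratio of 0.49. Ier2, Ier5 and Ier5l were thus near the control level at 30 h, while Ier3 was below it.

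The receptors of the NR4A family are orphan nuclear receptors controlled mainly by their own transcription. Nr4a1 (chromosome 15) was an exception to the 30 h pattern. It had 13.5, 21.2 and 21.2 CPM, with ratios of 0.61 (0.55 to 0.76) and 0.62 (0.55 to 0.76). Both were short of 1.5-fold with a pseudocount of 5 CPM and when all barcodes from 300 genes upward were taken (0.44 and 0.37). Nr4a2 had 14.2, 15.2 and 14.8 CPM, and Nr4a3 was under the filter at 1.87, 2.66 and 0.933 CPM. Klf10, a Krüppel-like factor induced by TGF-beta, showed a pattern of its own, with 56.0, 59.5 and 95.7 CPM. Its log2 ratio of 0.76 at 30 h (0.72 to 0.82) ranked 186 of 10175, and it was the only one of the 36 genes at least 1.5-fold higher at 30 h than at 6 h. Csrnp1, a nuclear protein first found as induced by the Axin gene, had 39.5, 63.7 and 47.5 CPM, with 0.68 at 6 h and 0.26 at 30 h. The gene overlaps Cx3cr1 on the same strand, and how reads in the overlap were counted is not known here.

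Feedback regulators divided. The dual-specificity phosphatases (DUSPs) remove both phosphates that activate MAP kinases. Dusp5, a nuclear phosphatase for ERK and the carrier of a pair of CArG boxes, had 4.82, 11.6 and 2.64 CPM. It passed the filter of 5 CPM only through its 6 h level, so its calls partly follow from the filter. The log2 ratios of Dusp5 were 1.12 at 6 h and −0.68 at 30 h, the latter only −0.36 with a pseudocount of 5 CPM. Dusp1, which acts on p38 and JNK, had 420, 470 and 424 CPM, and Dusp6, the cytoplasmic ERK phosphatase, had 129, 148 and 120 CPM, both within 1.5-fold in each pair. Dusp4 was low, at 6.64, 5.68 and 2.84 CPM, and at 30 h its log2 ratio was −0.99, and −0.57 with that pseudocount. Dusp2 (1.07, 1.59 and 1.69 CPM) and Dusp10 (4.28, 5.86 and 4.0 CPM) were under the filter. Zfp36 and Zfp36l1 encode proteins that bind AU-rich elements and speed the decay of early mRNAs. Zfp36 had 380, 502 and 247 CPM and log2 ratios of 0.40 and −0.62, the latter short of 1.5-fold with median-of-ratios size factors (−0.55) and with free RNA subtracted. Zfp36l1 had 333, 421 and 224 CPM and ratios of 0.34 and −0.57. Both decay factors moved in the same direction as Fos in each comparison, and by less in each.

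Genes of growth restraint and of the stress response were within 1.5-fold of control at 6 h. Btg1 and Btg2, antiproliferative cofactors of mRNA deadenylation, had 162, 218 and 140 CPM and 608, 766 and 497 CPM. The GADD45 proteins bind stress kinases and cell cycle regulators. Gadd45a had 20.3, 22.2 and 9.30 CPM, and its 30 h log2 ratio of −1.05 was the lowest among the 36 genes. Gadd45g had 116, 167 and 59.6 CPM, with ratios of 0.52 and −0.95. Gadd45b had 56.8, 68.0 and 57.5 CPM. Gadd45a and Gadd45g were thus at least 1.5-fold lower at 30 h while Gadd45b was at its control level. Ppp1r15a, which directs a phosphatase to eIF2-alpha to restore translation after stress, had 165, 204 and 138 CPM. Of the kinases and the GTPase, Trib1, a pseudokinase that brings C/EBP factors to degradation, had 10.5, 17.0 and 10.5 CPM and a 6 h ratio of 0.65, which was short of 1.5-fold in 3 of 13 other settings (0.51 at the least). Sik1, Plk2, Plk3 and Rhob were within 1.5-fold in each pair, with 6 h ratios between 0.20 and 0.27.

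The 6 h difference was not of the same size in all ECs. Barcodes were put into classes by marker genes that are not among the 42: general capillary cells (gCap-like), aerocytes, the large capillary cells of gas exchange (aCap-like), and artery-like, vein-like and lymphatic (LEC-like) cells. A class needed at least 4 UMIs from at least 2 of its markers. In gCap-like barcodes (6797 in control, 6589 at 6 h, 5034 at 30 h) the 42 genes summed to 12414, 17945 and 9784 CPM. All 35 genes that passed the filter there lay above 0 at 6 h, with a median log2 ratio of 0.51, and 16 were at least 1.5-fold higher (background 2.3%) and 0 lower (background 1.1%). In aCap-like barcodes (1683, 1434 and 1738) the median was 0.14 over 34 genes, of which 23 lay above 0 and 1, Atf3, was at least 1.5-fold higher (background 1.16%) and 0 lower (background 0.85%). Over all genes the median 6 h ratio was −0.01 in gCap-like and 0.003 in aCap-like barcodes. Of all genes, 47.0% lay above 0 in gCap-like and 50.6% in aCap-like barcodes. Of the 33 genes that passed in both classes, 33 had the larger 6 h ratio in gCap-like barcodes, and for 28 the counting intervals lay apart. The share of all genes with intervals apart was not taken, so these counts have no background. This difference between classes rests on 1 library per group and was not tested.

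Vein-like barcodes (851, 651 and 661) had the highest summed level in every library, at 18552, 21327 and 14129 CPM. Fos was at 2707 CPM in vein-like and 1495 CPM in gCap-like barcodes of the control library. The median 6 h ratio of vein-like barcodes was 0.31 over 36 genes, with 9 at least 1.5-fold higher (background 2.72%) and 0 lower (background 2.32%). Artery-like barcodes (289, 267 and 328) had 7868, 9722 and 6897 CPM, a median of 0.25 and 6 of 34 genes at least 1.5-fold higher (background 4.94%) and 0 lower (background 4.46%). LEC-like barcodes numbered only 89, 67 and 72. Their summed level was 7427, 8896 and 4843 CPM, and 6 of 34 genes were at least 1.5-fold higher (background 13.1%) and 0 lower (background 13.0%). For LEC-like barcodes the share of higher genes lay near the background. In all 5 classes the sum was highest at 6 h and lowest at 30 h. Atf3 was higher at 6 h in each, with a log2 ratio of 1.80 in gCap-like, 1.21 in aCap-like, 1.16 in artery-like, 1.21 in vein-like and 1.49 in LEC-like barcodes.

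At 30 h against control the median of the genes lay below 0 in every class. The median log2 ratio was −0.18 in gCap-like, −0.34 in aCap-like, −0.12 in artery-like, −0.32 in vein-like and −0.38 in LEC-like barcodes. Over all genes it was also below 0 in each class, at −0.07, −0.08, −0.07, −0.06 and −0.04 in the same order. In artery-like barcodes 15 of the 34 genes lay above 0 and 19 below. In gCap-like barcodes 8 of 35 genes were at least 1.5-fold lower (background 4.5%) and 2 higher (4.59%), and in aCap-like barcodes 7 of 34 lower (6.48%) and 0 higher (5.57%). Artery-like barcodes had 1 of 34 genes lower (10.0%) and 3 higher (8.04%), vein-like barcodes 8 of 36 lower (6.28%) and 1 higher (4.72%), and LEC-like barcodes 13 of 34 lower (15.0%) and 0 higher (12.1%). For gCap-like, artery-like and vein-like barcodes the share of higher genes lay near the background. The share of lower genes in artery-like barcodes was under its background. The log2 ratio of the summed level was −0.34 in gCap-like, −0.37 in aCap-like, −0.19 in artery-like, −0.39 in vein-like and −0.62 in LEC-like barcodes. Where a class needed 6 UMIs of its markers, the LEC-like median was −0.17 with 8 of 35 genes lower (60 barcodes at 30 h and 75 in control). Under that gate 11 genes were lower in aCap-like and 4 in artery-like barcodes. At 6 h 3 genes of LEC-like barcodes were then at least 1.5-fold lower than in control, in place of 0. The shares of all genes under that gate were not taken, so these counts have no background. With the gate of 4 UMIs, 15.0% of all genes in LEC-like barcodes were lower at 30 h and 13.0% at 6 h.

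Between 6 h and 30 h more genes were past the limit in every class. At least 1.5-fold lower at 30 h than at 6 h were 20 of 35 genes in gCap-like (background 4.85%), 15 of 34 in aCap-like (5.96%), 14 of 34 in artery-like (9.1%), 21 of 36 in vein-like (5.81%) and 18 of 34 in LEC-like barcodes (15.7%). At least 1.5-fold higher were 1 gene in gCap-like (background 4.71%), 1 in aCap-like (6.18%), 3 in artery-like (7.03%), 1 in vein-like (4.95%) and 0 in LEC-like barcodes (12.9%). With the gate of 6 UMIs the LEC-like median between these times was −0.27 in place of −0.72, and 12 genes were lower. The share of all genes was not taken under that gate (15.7% with the gate of 4 UMIs). Against control, Klf10 was higher at 30 h in 4 classes, with ratios of 0.88 in gCap-like, 0.48 in aCap-like, 0.73 in artery-like and 0.89 in vein-like barcodes, and in LEC-like barcodes it was 0.07 (−0.41 to 0.55).

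Several genes had opposite signs in the capillary classes. Of the 33 genes that passed in both, 10 did so at 6 h, all higher than control in gCap-like and lower in aCap-like barcodes, and for 8 of them both counting intervals lay clear of 0 (Jun, Nr4a2, Dusp1, Klf10, Gadd45a, Gadd45b, Ppp1r15a and Sik1). At 30 h 9 had opposite signs, and for 7 both intervals lay clear of 0 (Ier5, Nr4a1, Nr4a2, Dusp1, Dusp6, Csrnp1 and Sik1). How many of all genes had opposite signs in these classes was not taken, so the counts at both times have no background. Gadd45b had 26.7, 51.4 and 23.6 CPM in gCap-like barcodes, a 6 h log2 ratio of 0.92 (0.85 to 1.04). In aCap-like barcodes it was at 168, 125 and 165 CPM, a 6 h ratio of −0.42 (−0.50 to −0.33), so the level in all ECs, with its ratio of 0.26, averaged over both. Nr4a1 was at 7.52, 17.7 and 22.6 CPM in gCap-like barcodes, with ratios of 1.13 at 6 h and 1.47 at 30 h. In aCap-like barcodes it was at 17.4, 19.3 and 14.1 CPM, with 0.14 and −0.29. Gadd45a had 16, 20.9 and 8.90 CPM in gCap-like barcodes, with 0.37 at 6 h, and 37.0, 26.1 and 7.37 CPM in aCap-like barcodes, with −0.49 (−0.69 to −0.32). Sik1 had 6 h ratios of 0.44 and −0.34 and Dusp1 of 0.35 and −0.21 in gCap-like and aCap-like barcodes. Dusp4 was counted mainly in aCap-like barcodes, at 28.1, 25.5 and 10.2 CPM, against 1.13, 1.29 and 0.415 CPM in gCap-like ones.

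**Figure D2:**
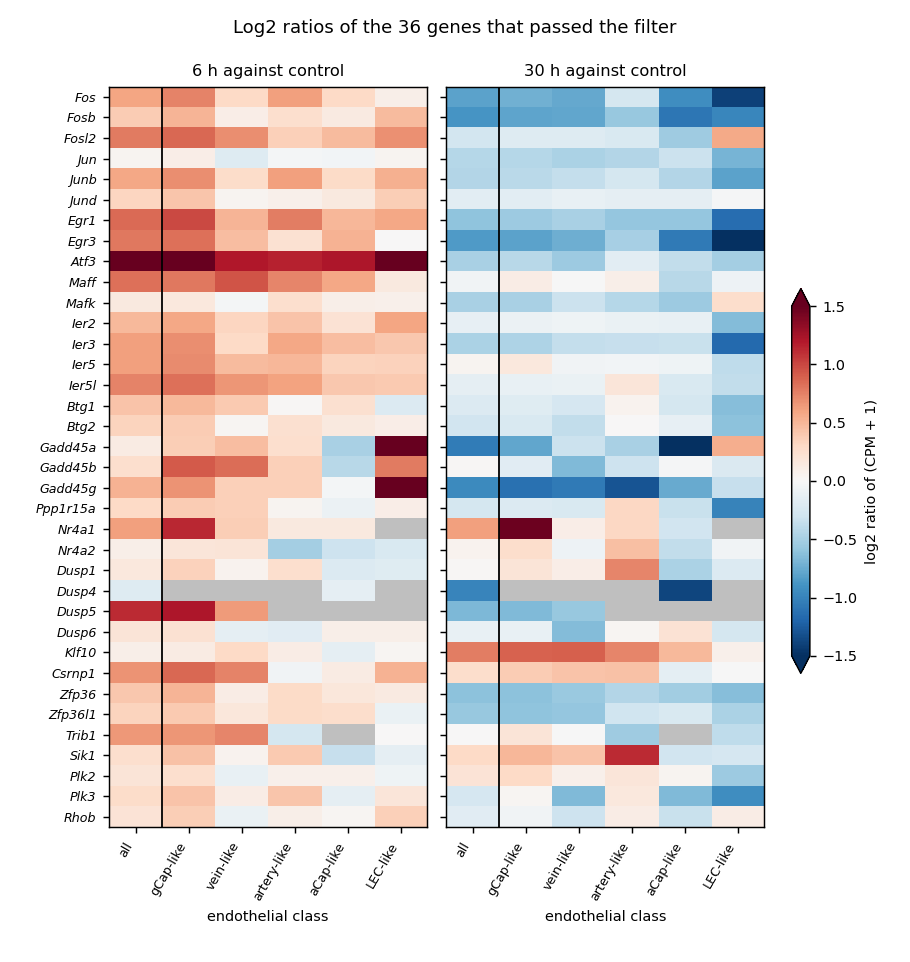
Log2 ratios of (CPM + 1) for the 36 genes that passed the filter, at 6 h (left) and 30 h (right) against control, in all endothelial barcodes and in 5 marker-gated classes. Red is higher and blue lower than control, the scale ends at 1.5 in either direction, and grey marks genes under the filter in that class. At 6 h the gCap-like column is redder than the aCap-like one (medians 0.51 and 0.14), and at 30 h the rows of Klf10 and, in gCap-like barcodes, Nr4a1 stand out as higher.

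Within each library the genes were not spread evenly over cells. The share of a barcode's UMIs from the 42 genes had a broad distribution with a low and a high group of barcodes. Its 10th percentile, median and 90th percentile were 0.26%, 0.914% and 2.50% in control. The 6 h library had 0.30%, 1.19% and 3.52%, and the 30 h library 0.229%, 0.633% and 1.92%. Barcodes with a share under 0.5% made up 32.8% of control, 26.7% of 6 h and 41.2% of 30 h barcodes, and those with 2% to 4% made up 18.5%, 27.2% and 8.32%. The distribution thus kept a low group in every library, and the high group lay at a larger share at 6 h and at a smaller share at 30 h.

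The 95th percentile of the control library was 2.95%. By construction 5.0% of control barcodes lay above it, and 17.0% (exact interval 16.3 to 17.7) did so at 6 h and 2.03% (1.75 to 2.33) at 30 h. With each barcode thinned to 2000 UMIs, which left out 195, 197 and 111 shallower barcodes, the shares above the control's percentile of 3.00% were 4.96%, 16.4% and 2.03%. In gCap-like barcodes the share above that class's own control percentile was 19.6% at 6 h and 2.11% at 30 h, and in aCap-like barcodes 14.6% and 1.67%. The median share of aCap-like barcodes was lower at 6 h than in control, 0.708% against 0.853%, while their 90th percentile was higher, 2.75% against 2.19%. The share of aCap-like cells was therefore higher at 6 h in the upper part of the distribution and lower in its middle. Vein-like barcodes had near-equal medians, 1.74% in control and 1.70% at 6 h, and 90th percentiles of 3.42% and 4.20%. In the few LEC-like barcodes the medians were 0.342% and 0.321% and the 90th percentiles 1.62% and 2.06%.

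**Figure D3:**
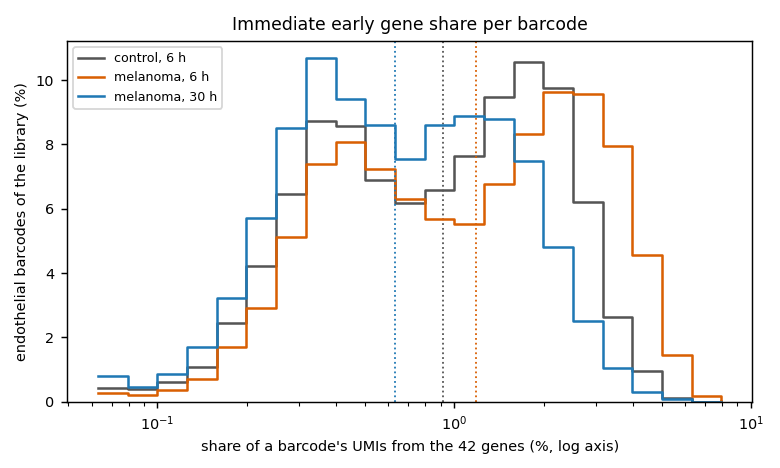
Distribution of the share of each endothelial barcode's UMIs that came from the 42 genes (log axis, bins of equal width on the log scale, barcodes under the lowest bin added to it), as percent of the barcodes of each library. Dotted lines are medians, at 0.914% in control, 1.19% at 6 h and 0.633% at 30 h. Each library has a peak at a low share and another above 1%, and the upper peak lies farthest right at 6 h.

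To see which members varied together over cells, gCap-like barcodes of each library were ranked by the share of all other members, and the 25% of barcodes with the highest share (high-share barcodes) were set against the 25% with the lowest (low-share barcodes). This ranking was chosen after the distribution had been seen and has no test. Of the 36 genes, 34 were higher in high-share barcodes of control, 36 of the 6 h and 35 of the 30 h library. At least 2-fold higher were 28, 31 and 28 of them, beside 1.69%, 2.24% and 1.43% of 6385 genes whose mean over both groups reached 20 CPM in every library, ranked by the share of all members. Egr1 had the widest span in each library, with 15.9 CPM in low-share and 1362 CPM in high-share barcodes of control, 29.3 and 2628 CPM at 6 h, and 9.68 and 1056 CPM at 30 h. Fos, Fosb, Junb, Egr1, Egr3, Atf3 and Zfp36 differed by at least 4 on the log2 scale in every library.

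Another group varied little over the same barcodes. Dusp6, Mafk, Zfp36l1 and Klf10 differed by less than 1 on the log2 scale in every library. Dusp4 was too low in gCap-like barcodes for this measure, with at most 1.86 CPM in either group. Zfp36l1 had 275 and 408 CPM in low-share and high-share barcodes of control, where its relative Zfp36 had 48.2 and 838 CPM. Klf10 had 82.3 and 92.4 CPM at 30 h, so its higher level there was present in both groups. Gadd45b and Trib1 differed more over barcodes at 6 h than in the other libraries. Gadd45b had 11.7 and 97.3 CPM at 6 h, against 17.1 and 41.7 CPM in control, and Trib1 had 6.13 and 22.4 CPM, against 10.0 and 9.05 CPM.

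The libraries also differed within these groups. In high-share barcodes, by the share of all members, all 36 genes were above control at 6 h, with a median log2 ratio of 0.57, beside −0.04 over all 10175 genes. There, 17 were at least 1.5-fold higher (background 3.12%) and 0 lower (background 4.07%). In low-share barcodes 27 of 36 were above control, with a median of 0.24, beside 0.01 over all genes. There, 6 were at least 1.5-fold higher (background 1.45%) and 1 lower (background 1.21%). At 30 h the medians were −0.19 in high-share and −0.20 in low-share barcodes, beside −0.05 and −0.08 over all genes. High-share barcodes had 2 genes at least 1.5-fold higher (background 5.07%) and 7 lower (background 5.22%), and low-share barcodes had 5 higher (background 5.84%) and 8 lower (background 5.88%). The share of all genes above control in these groups was not taken. Since these groups were set within each library by the members themselves, these values describe the shape of the distribution. Median depth was 7353 UMIs in high-share and 6394 in low-share barcodes of control, 7793 and 6901 at 6 h, and 8394.5 and 6794.5 at 30 h. Red cell RNA summed to 1646 CPM in high-share and 4683 CPM in low-share barcodes of control. It was at 678 and 2901 CPM at 6 h, and at 140 and 906 CPM at 30 h. How red cell RNA reached these barcodes was not tested. The median mitochondrial share was 2.18% in high-share and 2.74% in low-share barcodes of control, 2.11% and 2.70% at 6 h, and 2.50% and 3.23% at 30 h. Platelet markers summed to 107 and 209 CPM in control, 111 and 195 CPM at 6 h, and 126 and 172 CPM at 30 h, and epithelial markers to 493 and 492 CPM, 180 and 837 CPM, and 141 and 184 CPM. The part of these in the result was not tested.

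Genes outside the 42 followed the same ranking. By the lowest of the 3 log2 differences, the first were Gm26802 (6.12), Socs3 (4.50), an inhibitor of JAK and STAT signalling, and Nfkbiz (4.30), a nuclear regulator of NF-κB targets. Socs3 had 51.4 and 1293 CPM in low-share and high-share barcodes of control, 85.4 and 1958 CPM at 6 h, and 37.7 and 1065 CPM at 30 h. Polg2 (2.96), Gm26887 (2.95) and Ccn1 (2.94), a matrix protein gene, came next. These genes were named after their values were seen.

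**Figure D4:**
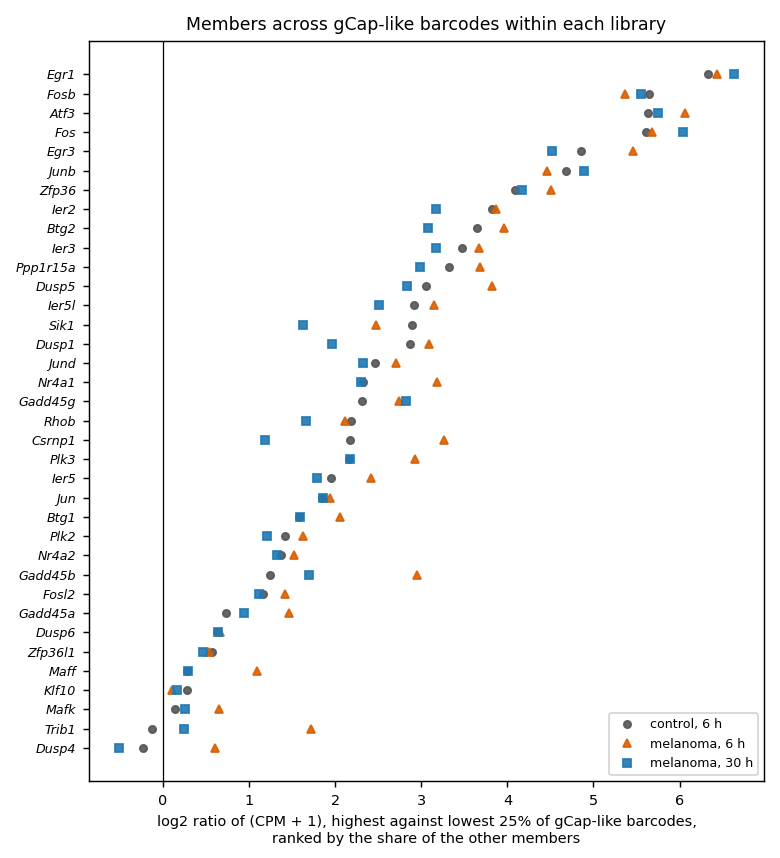
Log2 ratio of (CPM + 1) between the 25% of gCap-like barcodes with the highest and the 25% with the lowest share of the other members, for the 36 genes that passed the filter in each library. Points are single values with no replicate error. Egr1, Fosb, Atf3 and Fos lie above 5 in all 3 libraries, while Klf10, Mafk and Zfp36l1 lie under 1.

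The upstream factors were measured as mRNA only, which does not show their activity. Of the 12 SRF and CREB factors 0 were past 1.5-fold at 6 h (1.8% of all genes higher and 1.14% lower) or at 30 h (4.24% and 4.39%), shares at which few of 12 genes would be counted. Their median log2 ratio was 0.05 at 6 h and −0.09 at 30 h, beside −0.01 and −0.07 over all genes. Srf itself had 7.47, 10.7 and 8.68 CPM, with 0.47 at 6 h. Its cofactor Mrtfb had 195, 159 and 155 CPM (−0.30), Crem, which encodes CREB-like activators and repressors, 38.0, 45.8 and 47.9 CPM (0.26), and Creb1 90.4, 103 and 88.6 CPM (0.19). At 30 h the largest ratios were −0.46 for Crtc3, a CREB coactivator with 91.0, 100.0 and 66.0 CPM, and −0.33 for Mrtfb. Of the 21 genes of the MAP kinase path, 0 were past 1.5-fold at 6 h (median −0.03) and 1, lower, at 30 h (median −0.27), counts near the same shares of all genes. This 30 h median was below the −0.07 of all genes and near the −0.25 of the 36 early genes, with 17 of the 21 genes below 0. Of all genes, 40.9% lay above 0 at 30 h. A lower median at 30 h was thus not particular to the 36 genes. Map2k6 (37.5, 28.1 and 27.6 CPM) had −0.40 at 6 h, Rps6ka1 (81.3, 62.3 and 65.4 CPM) −0.38 and Nras (124, 144 and 121 CPM) 0.21. At 30 h Rps6ka5 (27.0, 26.4 and 16.8 CPM), a kinase of histone H3 and CREB, had −0.66 and Braf (124, 113 and 84.5 CPM) −0.55.

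Other early response genes moved in both directions. Of 34, 31 passed the filter, and 8 were at least 1.5-fold higher (1.8% of all genes) and 2 lower (1.14%) at 6 h, with a median log2 ratio of 0.27. Bcl6, a transcriptional repressor, had 13.6, 35.4 and 18.4 CPM (1.32 at 6 h), Odc1, the first enzyme of polyamine synthesis, 39.1, 75 and 40.7 CPM (0.92), and Tnfaip3, which restrains NF-κB, 11.1, 21.6 and 11.7 CPM (0.91). Spry4, an inhibitor of receptor tyrosine kinase signalling, had 25.4, 48.4 and 44.0 CPM (0.91). At 30 h the list's median was −0.28, with 3 genes at least 1.5-fold higher (4.24% of all genes) and 5 lower (4.39%). Rgs2, a regulator of G proteins, was at 21.9, 18.7 and 9.30 CPM (−1.15 at 30 h), and Ptgs2, the inducible cyclooxygenase, at 14.2, 14.6 and 6.84 CPM (−0.96). The genes that went the other way were named after their values were seen. Per1, a clock gene, had 24.8, 13.0 and 43.2 CPM, with −0.88 at 6 h and 0.78 at 30 h. Klf9, a Krüppel-like factor, had 520.5, 320.2 and 396 CPM (−0.70 at 6 h), and Hes1, a target of Notch, had 236, 244 and 417.5 CPM (0.82 at 30 h).

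Of 10 genes known to follow AP-1 later, 5 passed the filter, too few for a statement on the list, whose median was 0.42 at 6 h and 0.28 at 30 h. Ccnd1, cyclin D1, had 115, 170 and 308 CPM, with 0.55 at 6 h and 1.41 at 30 h, so it was highest at the time when most of the 36 early genes were lowest. Plaur, the urokinase receptor, had 135, 181 and 164 CPM (0.42 at 6 h), and Vim had 1090, 980 and 1383 CPM (−0.15 at 6 h). Hmox1, heme oxygenase, had 17.4, 19.3 and 6.86 CPM (−1.23 at 30 h).

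Heat shock genes, which respond to unfolded proteins and to heat, were higher at 6 h together with the immediate early genes. All 16 passed the filter, 13 were at least 1.5-fold higher at 6 h (1.8% of all genes), 0 were lower (1.14%), and their median log2 ratio was 0.81. Hspa1b had 17.2, 111 and 10.4 CPM (2.62) and Hspa1a 18.1, 91.5 and 13.3 CPM (2.28), near-identical copies between which reads can be split. Hsph1 had 12.9, 56.4 and 20.9 CPM (2.04) and Hsp90aa1 199, 434 and 198 CPM (1.12). At 30 h the median was 0.22, with 2 genes at least 1.5-fold higher (4.24% of all genes) and 3 lower (4.39%), among them Dnajb4 (48.6, 41.7 and 27.5 CPM, −0.80 at 30 h) and Hspa1b (−0.67). The summed level of the list was 3383, 6616 and 4081 CPM, and its part in the result for the 42 genes was not tested.

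**Figure D5:**
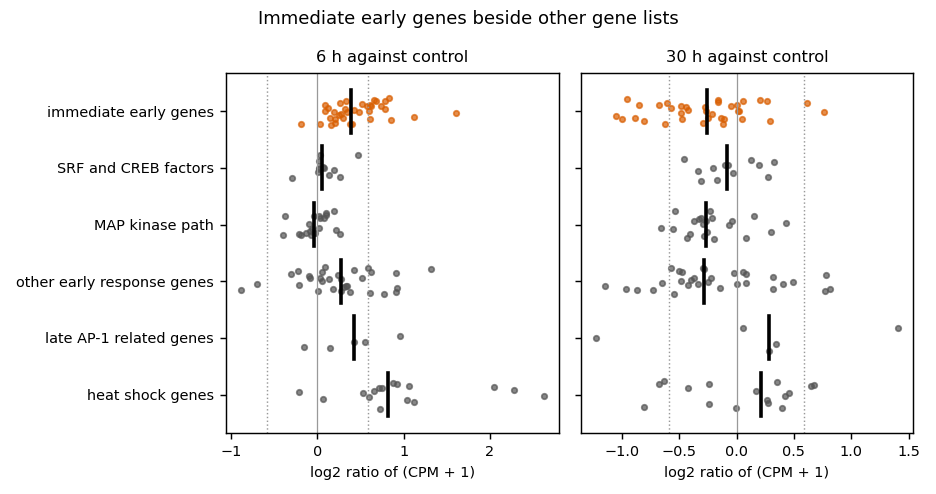
Log2 ratios of (CPM + 1) at 6 h (left) and 30 h (right) against control for genes that passed the filter in the immediate early list and in 5 other lists. Each point is a gene, thick bars are medians, and dotted lines are 1.5-fold in either direction. At 6 h the medians are 0.39 for immediate early genes, 0.05 for SRF and CREB factors, −0.03 for the MAP kinase path, 0.27 for other early response genes, 0.42 for late AP-1 related genes and 0.81 for heat shock genes. At 30 h they are −0.25, −0.09, −0.27, −0.28, 0.28 and 0.22 in the same order.

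RNA outside the EC barcodes moved with these results in part. Droplets with at most 50 UMIs, taken as empty, held the 42 genes at 11129, 14421 and 8058 CPM, the same order as in the cells. The 8 endothelial markers summed to 7511, 7155 and 8636 CPM in these droplets and to 7732, 7604 and 9203 CPM in EC barcodes. Empty droplets thus held EC RNA at levels near those of EC barcodes. They also held more red cell, epithelial and leukocyte RNA than EC barcodes did. There, red cell markers summed to 15461, 10517 and 3341 CPM and epithelial markers to 6111, 5484 and 5394 CPM. Leukocyte markers summed to 524, 1089 and 968 CPM, and melanoma markers to 4.34, 142 and 10.3 CPM. Which cells the early gene RNA of these droplets came from was not tested. Of the 36 genes, 33 had the same sign in empty droplets and in EC barcodes at 6 h, and 29 at 30 h. How many of all genes had the same sign was not taken, so these counts have no background. Free RNA was estimated at 17.7%, 16.1% and 12.5% of EC UMIs from the sum of Sftpc, Scgb1a1, Hbb-bs and Hba-a1, which ECs lack. Taken singly, these genes differ widely, so the estimates are rough. At 6 h Sftpc was at 305 CPM in EC barcodes and 4564 CPM in empty droplets, and Scgb1a1 at 242 and 693 CPM. At 30 h Sftpc was at 139 and 3027 CPM and Hbb-bs at 403 and 1556 CPM. With the profile of empty droplets subtracted, the median log2 ratio was 0.39 at 6 h and −0.27 at 30 h. Since that profile held the 42 genes in the same order as the cells, its subtraction could move the medians only a little. It therefore does not test the part of free RNA. The 7 leukocyte markers summed to 88.4, 134 and 67.7 CPM in EC barcodes. Ptprc was at 3.16 to 6.53 CPM, and the neutrophil genes S100a8 and S100a9 were at 2.00 and 3.02 CPM in control and 16 and 18.1 CPM at 6 h. The 4 platelet markers summed to 139, 170 and 140 CPM, the 6 mesenchymal markers to 33.6, 34.8 and 35.9 CPM, the 6 epithelial markers to 779, 576 and 362 CPM, the 4 red cell markers to 3243, 2115 and 827 CPM, and the 8 melanoma markers to 4.82, 19.4 and 6.25 CPM. Without barcodes that held at least 3 UMIs of leukocyte, platelet or melanoma markers, an alternative chosen after seeing the data, the medians were 0.39 at 6 h and −0.27 at 30 h, and 13 genes were at least 1.5-fold higher at 6 h.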

How the data were processed

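The deposited values were UMI counts per gene and barcode, unfiltered and not normalized. Per the file headers, the authors made them with Cell Ranger 7.2.0 on mm10. The submitters' processing notes also name Seurat 4.4.0. An older Cell Ranger stands in the study's methods. Whether intronic reads were counted is not given in the sources used here. Each library listed 32285 genes and between 1792904 and 1911655 barcodes, with 124085451 to 140601123 UMIs in all.

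The members and all gene lists were chosen with earlier results of these data known. EC barcodes were chosen by the limits given above, doublets were kept, and UMIs were summed per library and class with Python 3.11.15, numpy 2.4.6, scipy 1.17.1 and scanpy 1.11.5. Genes under 5 CPM on the mean of the libraries were left out of ratios. All members were accounted for, and those past 1.5-fold in any pair were given in every library. From other lists, up to 4 genes were named by size at 6 h and up to 2 at 30 h. Some genes that this rule names are not reported here. Intervals are exact conditional binomial for ratios, Poisson for levels and Clopper-Pearson for shares, at 95%. Precision is set by depth, and counting error only is covered. No test was made between single libraries. Class gates were set on marker UMIs (gCap-like barcodes had at most 2 UMIs of each other class). Gene positions are from GENCODE M21 on GRCm38, promoters from RefSeq. Scripts were tested on simulated data. Alternatives are given below.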

Additional observations from a re-analysis of the deposited data

Results flagged for a closer look

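The summed level of the 42 genes in empty droplets, which no comparison of cells used, was 14420.6 CPM in the 6 h library, above the 11129 CPM of the control library. EC barcodes held 16769 and 12484 CPM in the same libraries. The part of free RNA in the difference between cells was not tested, and the subtraction given above could not decide it.

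Gadd45b had a 6 h log2 ratio of −0.415 in aCap-like barcodes and 0.92 in gCap-like barcodes. Nr4a1 had a 30 h log2 ratio of −0.289 in aCap-like barcodes, from 306 UMIs in control and 271 at 30 h, and 1.47 in gCap-like barcodes, from 381 and 928. Between aCap-like and vein-like barcodes, Gadd45b had 6 h ratios of −0.42 and 0.837, and Dusp6 had 30 h ratios of 0.22 (0.11 to 0.33) and −0.655 (−0.82 to −0.51). Between aCap-like and artery-like barcodes, Sik1 had 30 h ratios of −0.29 and 1.12 (0.67 to 1.66), and Dusp1 of −0.47 and 0.732 (0.59 to 0.88). In LEC-like barcodes, which were few, Gadd45a had a 6 h ratio of 1.501 (0.68 to 2.46), against −0.49 in aCap-like barcodes, and Ppp1r15a a 30 h ratio of −1.003 (−1.73 to −0.34), against 0.31 (0.08 to 0.54) in artery-like barcodes. These are the cases, over all pairs of the 5 classes and both times against control, of opposite sign with both counting intervals clear of 0 in which a class was past 1.5-fold. In each the difference rests on 1 library per group and was not tested. How often such cases occur over all genes was not taken, so their number has no background.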

How the results depend on the processing

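Results were recomputed under 13 alternative settings of the barcode filters, scaling, pseudocount, gene filter and depth, 1 of them chosen after seeing the data. The median log2 ratio of the members ranged from 0.36 to 0.51 at 6 h against control, from −0.28 to −0.18 at 30 h against control and from −0.67 to −0.57 at 30 h against 6 h. The members at least 1.5-fold higher at 6 h numbered 10 to 16, with 0 lower in every setting, and those lower at 30 h than control 7 to 10. The members higher at 30 h than control numbered 1 in place of 2 when barcodes from 300 genes upward were all taken, and 1 with a pseudocount of 5 CPM, and Nr4a1 was the gene lost. Of 46 results of single genes past 1.5-fold, 46 kept their direction in each setting that gave a value and 32 stayed past 1.5-fold in each. The calls lost in a setting were those of Fos, Nr4a1 and Trib1 at 6 h, of Nr4a1, Egr1, Dusp4, Dusp5 and Zfp36 at 30 h against control, and of Ier2, Btg1, Btg2, Dusp4, Mafk and Trib1 at 30 h against 6 h. For Dusp4, whose 2 results are among the 46, 9 settings gave a value. With a class gate of 6 UMIs, which leaves fewer barcodes, the medians of LEC-like barcodes were 0.33 at 6 h and −0.17 at 30 h against control and −0.27 at 30 h against 6 h, in place of 0.14, −0.38 and −0.72, and those of gCap-like, aCap-like, vein-like and artery-like barcodes kept their sign (gCap-like 0.52 at 6 h, aCap-like 0.11). No paired analysis was possible because each group had 1 library.

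Limits: 1 library per group, pooled mice, no PBS library at 30 h, and counts of mRNA that do not show protein or binding. Genes under 5 CPM rest on few UMIs in few barcodes.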
